A study of Mus musculus with 18 samples.

Results

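The 10 genes described here are the mouse Oas and Ifit genes Oas1a, Oas1g, Oas2, Oas3, Oasl1, Oasl2, Ifit1, Ifit2, Ifit3 and Ifit3b, taken by symbol from the 53379 gene IDs of the deposited counts. All 10 were found, and all 10 passed the filter on low counts. RNA had been sequenced from neutrophils sorted by FACS from the bone marrow of 10-week-old mice, either wild type (WT) or labelled CIS-/-, that is, without the suppressor of cytokine signalling encoded by Cish. Cells of each genotype were lysed straight after the sort (unstimulated) or cultured for 4 h or 24 h in medium with 100 ng/mL GM-CSF, a growth factor for myeloid cells, which gave 6 groups of 3 libraries. The treatment protocol in the labels gives 42 h for the later time, but 24 h stands in the sample titles and in the extraction text and is used here. No library was cultured without GM-CSF, so a change from the unstimulated cells holds both the culture and the cytokine, and these cannot be told apart. The labels do not say that replicates came from separate mice, so p-values measure the spread between libraries, which may be technical.

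The Oas and Ifit genes are among the genes that interferons switch on in infected or alerted cells. Interferon receptors switch on the complex ISGF3, whose DNA-binding part is Irf9, and ISGF3 binds a DNA element called the ISRE before these genes. Oas1a, Oas1g, Oas2 and Oas3 are oligoadenylate synthetases or relatives of them: such enzymes sense double-stranded RNA and make a short messenger that leads to the cutting of RNA in the cell. Oasl1 and Oasl2 are Oas-like proteins with ubiquitin-like domains, of which mouse Oasl2 keeps synthetase activity and Oasl1 lacks it. Ifit proteins are built of tetratricopeptide repeats, and Ifit1 binds viral RNA whose cap lacks a methyl group that the cell's own messenger RNA carries.

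On GRCm38, the Oas genes lie on chromosome 5, with Oas2, Oas3, Oas1g and Oas1a on the minus strand between 120730333 and 120907521 and Oasl2 and Oasl1 on the plus strand between 114896936 and 114937915. The Ifit genes lie on chromosome 19 between 34550694 and 34650009, all on the plus strand. Since ISGF3 acts at these starts, the 200 bases before the RefSeq start (GRCm38.p6) are shown for 7 of the genes: those with an ISRE core, and Oasl2, whose time course differed. Each is written on the gene's own strand, and capitals mark the ISRE core GAAANNGAAA, in either orientation (TTTCNNTTTC on the other strand), and in Oas1a also the GAS core TTCNNNGAA, an element of other cytokine-responsive promoters. The windows are chr5:120907526-120907725 and chr5:120887614-120887813 on the minus strand for Oas1a and Oas1g, chr5:120777660-120777859 on the minus strand for Oas3, chr5:114896734-114896933 on the plus strand for Oasl2, and chr19:34640689-34640888, chr19:34583329-34583528 and chr19:34607757-34607956 on the plus strand for Ifit1, Ifit3 and Ifit3b.
Oas1a: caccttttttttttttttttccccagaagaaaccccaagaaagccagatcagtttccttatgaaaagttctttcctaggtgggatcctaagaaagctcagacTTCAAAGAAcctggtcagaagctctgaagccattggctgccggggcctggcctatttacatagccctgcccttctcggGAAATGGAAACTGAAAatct
Oas1g: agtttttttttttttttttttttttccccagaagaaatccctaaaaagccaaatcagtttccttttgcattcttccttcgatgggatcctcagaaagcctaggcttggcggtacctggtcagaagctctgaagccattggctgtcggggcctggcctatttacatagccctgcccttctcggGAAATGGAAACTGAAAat
Oas3: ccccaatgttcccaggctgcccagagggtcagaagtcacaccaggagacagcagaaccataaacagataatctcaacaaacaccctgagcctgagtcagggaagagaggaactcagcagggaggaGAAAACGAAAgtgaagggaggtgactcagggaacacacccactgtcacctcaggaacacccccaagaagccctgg
Oasl2: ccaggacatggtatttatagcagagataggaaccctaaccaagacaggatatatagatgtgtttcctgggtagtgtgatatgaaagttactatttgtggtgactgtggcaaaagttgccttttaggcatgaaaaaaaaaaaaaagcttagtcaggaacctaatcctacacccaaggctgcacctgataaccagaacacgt
Ifit1: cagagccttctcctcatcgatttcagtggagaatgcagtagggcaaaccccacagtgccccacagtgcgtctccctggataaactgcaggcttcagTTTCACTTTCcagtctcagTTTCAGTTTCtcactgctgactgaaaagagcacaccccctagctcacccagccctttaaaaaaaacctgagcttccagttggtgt
Ifit3: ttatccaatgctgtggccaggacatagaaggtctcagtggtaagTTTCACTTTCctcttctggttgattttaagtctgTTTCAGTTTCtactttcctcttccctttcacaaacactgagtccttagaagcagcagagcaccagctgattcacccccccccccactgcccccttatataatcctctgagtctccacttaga
Ifit3b: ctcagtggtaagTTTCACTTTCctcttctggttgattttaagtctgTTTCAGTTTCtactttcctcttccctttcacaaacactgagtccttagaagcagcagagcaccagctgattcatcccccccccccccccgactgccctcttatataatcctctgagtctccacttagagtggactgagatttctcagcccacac

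A window of 250 bases before to 50 bases after the start was given for 9 of the 10 genes, with 2 windows for Ifit2. At least 1 ISRE core was found in the windows of Oas1a, Oas1g, Oas3, Ifit1, Ifit3 and Ifit3b, against 3.44% of all 32851 windows of this length. Oas1a and Oas1g each held 2 overlapping matches that end within 5 bases of the start, and the 2 matches of Ifit1, Ifit3 and Ifit3b lay at positions -188 to -76 relative to it. These letters were not in the windows of Oasl1, Oasl2 and Ifit2. The GAS core was in the window of Oas1a and in the first window of Ifit2, against 8.3% of all windows. A match is a description of the letters and not a measured binding site.

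**Figure D1:**
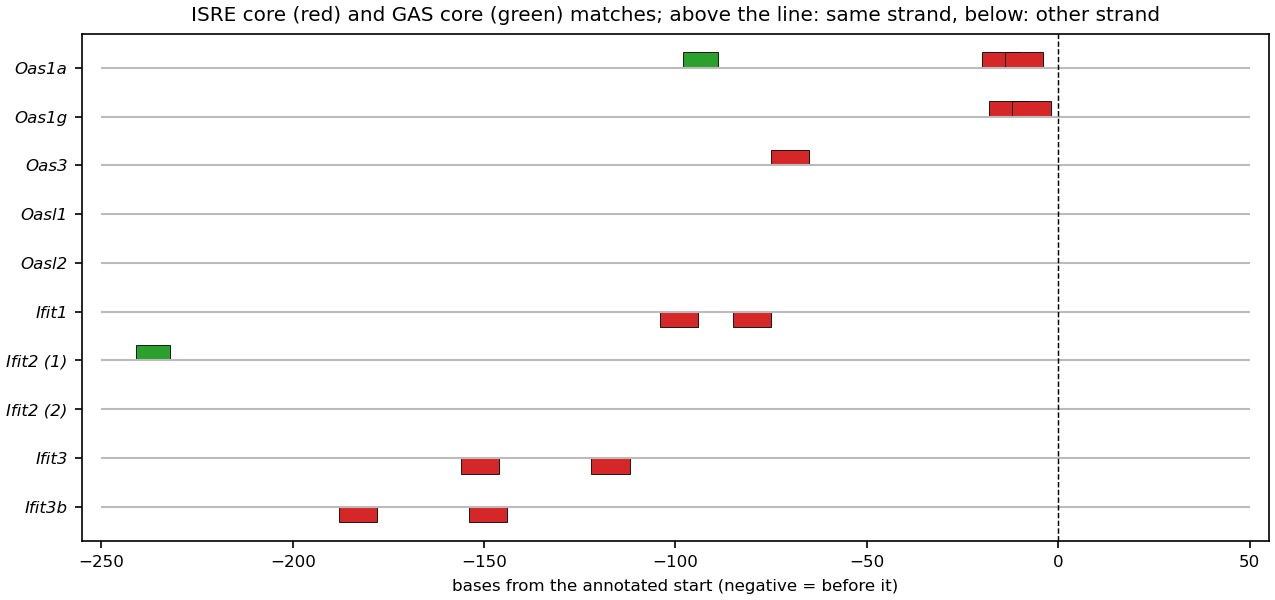
Matches to the ISRE core (red) and the GAS core (green) in the windows of 9 genes; the x axis is the distance in bases from the annotated start, and the dashed line is the start. The 2 windows of Ifit2 are numbered, boxes above a line are on the gene's strand and boxes below it on the other, and the lines of Oasl1 and Oasl2 are empty.

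Near-identical copies limit what the counts can say of 4 members. The longest transcripts of Ifit3 and Ifit3b were 98% identical over 1697 aligned bases, and those of Oas1a and Oas1g 97.5% over 1860. Of the 75-base stretches of Ifit3, 41.1% also occur in Ifit3b, and 47.6% of those of Oas1a also occur in Oas1g. For Ifit3b and Oas1g the shares were 35.7% and 36.9%. The level of each copy is therefore uncertain, and the pairs were also tested with their counts summed. Ifit1 shared 5.19% of its stretches with Ifit1bl2, and the other 5 members shared none. Oasl1 overlaps the antisense gene Gm13822 over 38 exon bases, and whether the authors counted by strand is not stated in the sources.

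Library totals ran from 12170524 to 22539858 counts, and TMM scaling factors from 0.8842 to 1.29, with all 3 WT libraries at 24 h at 1.282 or more and all 3 labelled CIS-/- at 24 h at 0.8941 or less. Levels are given as CPM, counts divided by the TMM-scaled library size. The targeted gene, Cish, averaged 6.5 CPM in unstimulated WT cells, 1149 at 4 h and 1060 at 24 h, and in the libraries labelled CIS-/- 18.72, 240.1 and 237.9, so in unstimulated cells it was higher under the label CIS-/-, against that label. All 12 neutrophil markers were at 1 CPM or more in every group, but their summed level fell from between 118830 and 125194 CPM in unstimulated cells to between 69998 and 76505 at 4 h and between 34480 and 39962 at 24 h. The part of this in the 4 h and 24 h values was not tested, and in bulk RNA fewer cells of a type and less RNA per cell cannot be told apart. Markers of monocytes and macrophages summed to between 305 and 332 CPM in unstimulated libraries, to between 155 and 162 in WT and 210 and 216 in those labelled CIS-/- at 4 h, to between 496 and 516 in WT at 24 h and to between 935 and 976 in those labelled CIS-/- at 24 h, with Adgre1 the most abundant at 24 h and at least 1 of Cx3cr1, C1qa and C1qb at 0 in 4 of the 6 groups.

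In WT cells all 10 genes rose by 4 h of GM-CSF, and by 24 h 9 of the 10 had fallen below their unstimulated level, whereas Oasl2 alone remained above it. Oasl2 rose 18.5-fold at 4 h and was still 6.47-fold above the unstimulated level at 24 h. Ifit3 rose 5.13-fold and then fell 331-fold between 4 h and 24 h. Among all 11569 genes tested, 38.1% were called higher at 4 h against unstimulated cells, 40.7% higher and 37.7% lower at 24 h against unstimulated cells, and 39.6% lower at 24 h against 4 h (adjusted p under 0.05, edgeR quasi-likelihood test). The median log2 fold change of the 10 genes in WT cells was 1.73 at 4 h and -2.97 at 24 h, both against unstimulated cells, beside -0.02 and 0.05 for all genes. With library sizes alone in place of TMM factors, the median of all genes moved to -0.19 at 4 h and to 0.36 at 24 h, and the split of all genes called higher and lower at 24 h moved from 4707 and 4361 to 6352 and 3164; the 10 genes kept their calls and directions there.

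**Figure D2:**
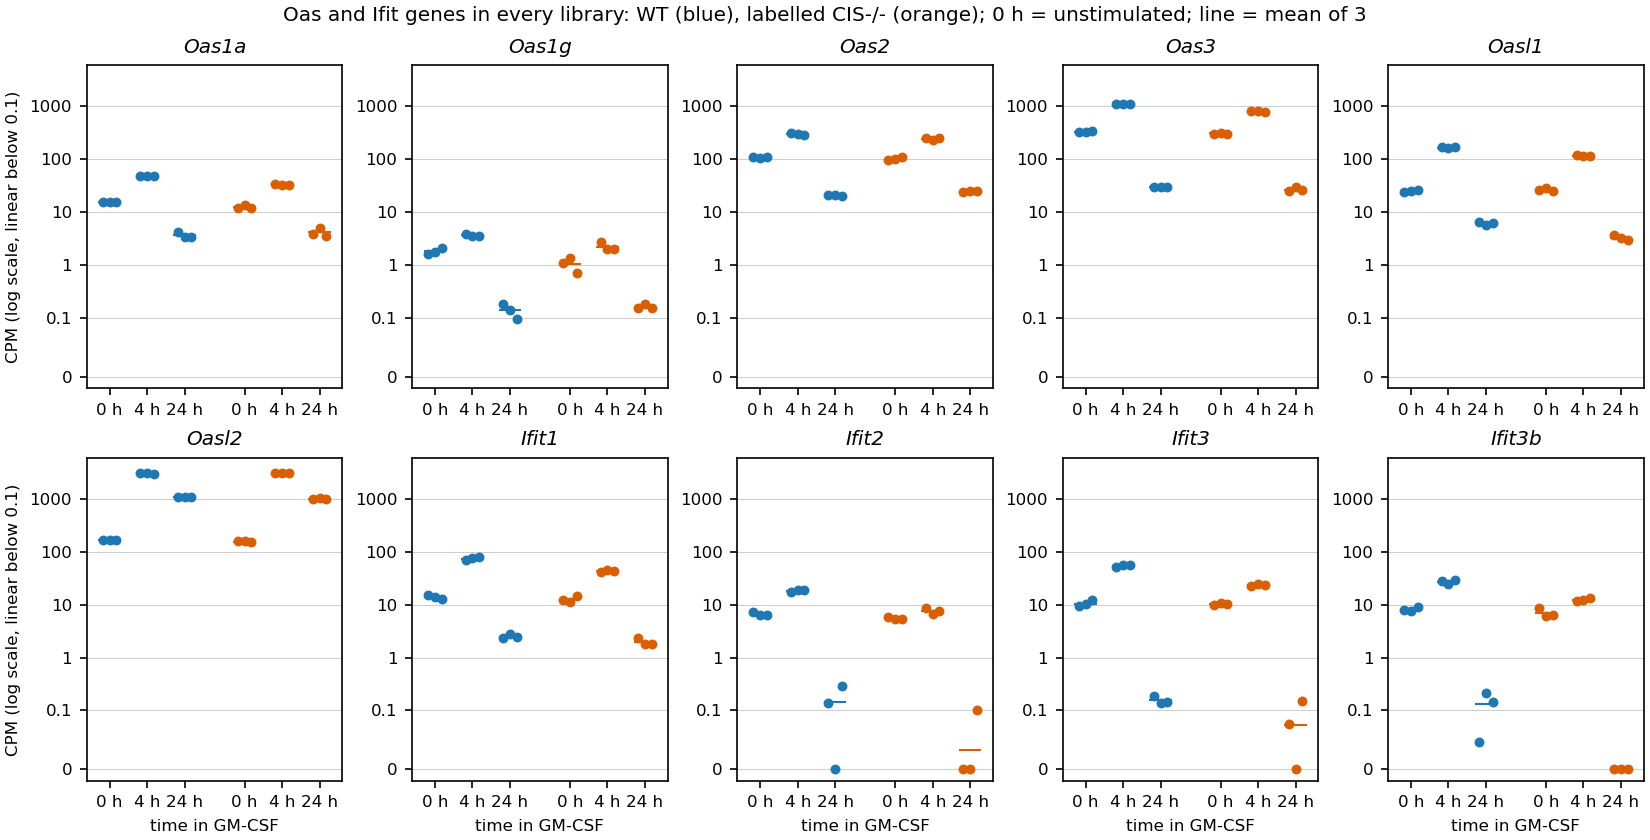
Level of each gene in the 18 libraries (points; y axis in CPM, log scale, linear below 0.1) by time in GM-CSF, WT in blue and libraries labelled CIS-/- in orange, with 0 h for unstimulated cells and a line at the mean of 3. The 24 h points lie below the unstimulated ones in 9 panels, and in the Oasl2 panel they lie above them, at 988 to 1099 CPM against 155 to 170.

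Oasl2, the Oas-like gene whose product keeps synthetase activity, stood apart from the other 9 in its time course. The WT libraries read 164, 170 and 167 CPM unstimulated, 3157, 3134 and 3000 after 4 h and 1081, 1099 and 1066 after 24 h. Those labelled CIS-/- read 158, 157 and 155 CPM unstimulated, 3033, 3060 and 3136 after 4 h and 988, 1040 and 1010 after 24 h. All 24 h libraries lay between the unstimulated and the 4 h libraries, with no overlap between times. The log2 fold change at 24 h against unstimulated cells was 2.69 ± 0.03 (SE) in both genotypes (edgeR adjusted p = 1.93e-58 in WT and 8.56e-59 in those labelled CIS-/-). With library sizes alone in place of TMM factors the genotypes differed in this change, by -0.50 (labelled CIS-/- minus WT, edgeR adjusted p = 1.28e-14). Of the rise from unstimulated to 4 h, 31.2% was still present at 24 h in WT and 29.3% in the libraries labelled CIS-/-. Between 4 h and 24 h in WT the log2 fold change of Oasl2 was -1.52 ± 0.03, beside -3.71 to -8.37 for the other 9 genes.

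Oas3 and Oas2, the long synthetases, which carry several synthetase units, were the most abundant of the other genes. Oas3 was at 328, 325 and 339 CPM in the unstimulated WT libraries, 1098, 1086 and 1122 in the 4 h ones and 29.6, 30.2 and 29.6 in the 24 h ones. Under the label CIS-/- the 3 times read 304, 313 and 306, then 826, 821 and 791, then 24.7, 29.2 and 25.8 CPM. Every 4 h library lay above, and every 24 h library below, all unstimulated ones, and at each time the 2 genotypes did not overlap. Oas2 was at 108, 105 and 112 CPM in the unstimulated WT libraries, 308, 304 and 289 in the 4 h ones and 21.2, 20.7 and 20.4 in the 24 h ones. The CIS-/- label went with 96.4, 101 and 109 CPM unstimulated, 247, 234 and 254 after 4 h and 23.8, 25.1 and 24.8 after 24 h. The genotypes overlapped for Oas2 in unstimulated cells, with WT above at 4 h and below at 24 h. In WT cells Oas3 rose by 1.74 ± 0.03 on the log2 scale at 4 h (edgeR adjusted p = 6.83e-48) and ended 11.1-fold under its unstimulated level at 24 h, and Oas2 rose by 1.47 ± 0.04 (adjusted p = 7.92e-40) and was then 5.23-fold under it.

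Oas1a and its near copy Oas1g, genes of the short synthetase type, were less abundant. Oas1a was at 15.8, 15.7 and 15.4 CPM in the unstimulated WT libraries, 47.7, 47.2 and 48.5 in the 4 h ones and 4.24, 3.41 and 3.38 in the 24 h ones. Libraries labelled CIS-/- held 11.8, 13.4 and 11.9 CPM unstimulated, 34.4, 33.2 and 32.2 after 4 h and 3.88, 4.97 and 3.5 after 24 h. The genotypes were apart in unstimulated cells and at 4 h, WT being higher, and overlapped at 24 h. Oas1g was at 1.59, 1.75 and 2.09 CPM in the unstimulated WT libraries, 3.81, 3.6 and 3.54 in the 4 h ones and 0.186, 0.139 and 0.0981 in the 24 h ones, the last from 10 counts in all. For the label CIS-/- the values were 1.1, 1.33 and 0.709, then 2.7, 1.96 and 1.96, then 0.155, 0.184 and 0.15 CPM. The 4 h libraries labelled CIS-/- overlapped the unstimulated WT ones. In WT cells Oas1a changed by 1.62 ± 0.07 (log2) at 4 h and -2.09 ± 0.10 at 24 h against unstimulated cells, and Oas1g by 1.0 ± 0.20 and -3.62 ± 0.36 (edgeR, largest adjusted p = 1.74e-05).

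Oasl1, the Oas-like gene without synthetase activity, rose 6.58-fold at 4 h in WT cells, from 24.3, 25.4 and 25.8 CPM to 167, 163 and 167 CPM, and read 6.56, 5.7 and 6.13 CPM after 24 h. Its libraries labelled CIS-/- went from 26.2, 28 and 24.9 CPM to 120, 115 and 116, and then to 3.64, 3.22 and 2.9. The genotypes overlapped in unstimulated cells, and WT lay above at both later times. Its log2 fold change in WT cells was 2.72 ± 0.05 at 4 h and -2.05 ± 0.08 at 24 h (edgeR adjusted p = 8.12e-49 and 6.21e-33), both against unstimulated cells.

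Ifit2, Ifit3 and Ifit3b fell the furthest between 4 h and 24 h, and the 4 Ifit genes had a median log2 fold change in WT of -7.30 beside -4.23 for the 6 Oas genes. Ifit3 was at 9.29, 10.1 and 12 CPM in the unstimulated WT libraries, 51.2, 55.5 and 55.5 in the 4 h ones and 0.186, 0.139 and 0.147 in the 24 h ones. Under the label CIS-/- the 3 times read 9.98, 10.6 and 10.2, then 22.3, 24.1 and 23.2, then 0.0775, 0 and 0.15 CPM. The 24 h values rest on 11 counts in WT and 4 in those labelled CIS-/-, and the genotypes overlapped there and in unstimulated cells but not at 4 h. Ifit3b, its copy, was at 7.95, 7.59 and 9.08 CPM in the unstimulated WT libraries, 27.5, 24.8 and 29.2 in the 4 h ones and 0.0466, 0.209 and 0.147 in the 24 h ones. Under the label CIS-/- it read 8.52, 6.09 and 6.45 CPM unstimulated and 11.6, 12.1 and 13.2 after 4 h, with no count in any of the 3 libraries of 24 h. Set against the 3 counts per group that a count of 0 allows, or 0.0686 CPM, Ifit3b was at least 103-fold lower than in unstimulated and at least 179-fold lower than in 4 h cells labelled CIS-/-.

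Ifit2 was at 7.22, 6.25 and 6.34 CPM in the unstimulated WT libraries, 17.7, 19 and 18.9 in the 4 h ones and 0.14, 0 and 0.294 in the 24 h ones. Those labelled CIS-/- read 5.78, 5.39 and 5.35 CPM unstimulated, 8.61, 6.74 and 7.49 after 4 h and 0, 0 and 0.1 after 24 h, the last from 2 counts. The 4 h libraries labelled CIS-/- overlapped the unstimulated WT ones. Under that label the rise at 4 h was 0.45 ± 0.14 (log2, edgeR adjusted p = 0.00402), the smallest fitted rise of the 10, and with library sizes alone it was 0.30 and not called (adjusted p = 0.0517). In the cells labelled CIS-/-, Ifit2 was 121 times as high unstimulated as at 24 h, with a 95% counting interval of 33.1 to 1001, which covers counting error alone. Ifit1 was at 15.2, 14.1 and 12.9 CPM in the unstimulated WT libraries, 69.9, 75.5 and 78.1 in the 4 h ones and 2.33, 2.75 and 2.4 in the 24 h ones. The CIS-/- label went with 12, 11.4 and 14.8 CPM unstimulated, 41.7, 45 and 42.5 after 4 h and 2.33, 1.84 and 1.8 after 24 h. Ifit1 thus kept a countable level at 24 h, from 178 counts in WT and 86 in those labelled CIS-/-, when Ifit2, Ifit3 and Ifit3b had 11 counts or fewer in each group. In WT cells Ifit1 rose by 2.41 ± 0.07 on the log2 scale at 4 h and was 5.55-fold under its unstimulated level at 24 h, while Ifit2, Ifit3 and Ifit3b were 48.8-fold, 64.5-fold and 55.3-fold under theirs.

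In the libraries labelled CIS-/- the 10 genes had the same directions as in WT at each time: all 10 were called higher at 4 h (37.9% of all genes), 9 lower and Oasl2 higher at 24 h against unstimulated cells (42% of all genes lower, 42.1% higher), and all 10 lower at 24 h against 4 h (37.9% of all genes). Their median log2 fold change was 1.33 at 4 h and -2.86 at 24 h, both against unstimulated cells, beside -0.03 and -0.01 for all genes. With library sizes alone the median of all genes was -0.17 and -0.20.

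**Figure D3:**
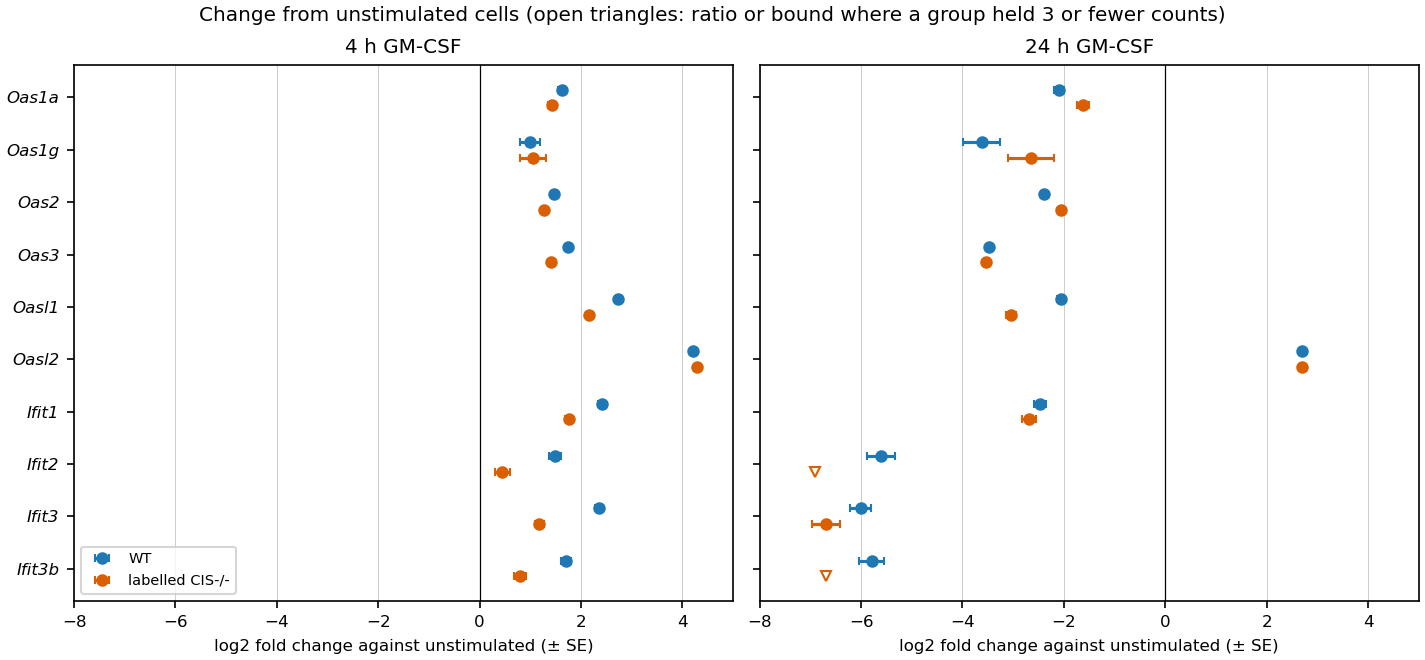
Log2 fold change against unstimulated cells (x axis, ± SE from edgeR) of each gene at 4 h (left) and 24 h (right), WT in blue and libraries labelled CIS-/- in orange. Open triangles stand for Ifit2 (a ratio of 121) and Ifit3b (a bound of 103) in those labelled CIS-/- at 24 h, and Oasl2 is the only gene right of 0 at 24 h, at 2.69 in both genotypes.

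Levels of different genes were compared per kilobase of exon (RPKM, CPM per kilobase). In unstimulated WT cells Oas3 made up 35.1% ± 0.15 (SD, n = 3) of the 10 genes' summed 133.1 RPKM, Oasl2 19.7% ± 0.55 and Oas2 18.3% ± 0.31. At 4 h the sum was 877 RPKM in WT and 753.7 in the libraries labelled CIS-/-, and Oasl2 made up 55.4% ± 0.92 and 64% ± 0.60 of it. At 24 h the sums were 184.2 and 172.4 RPKM, of which Oasl2 was 92.2% ± 0.23 and 92.1% ± 0.26. Oasl2 alone, at 169.8 ± 2.61 RPKM in WT at 24 h, was above the sum of all 10 genes in unstimulated WT cells. After Oasl2, Oas2 and Oas3 were next in both genotypes at 24 h, at 4.661 and 4.212 RPKM in WT.

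**Figure D4:**
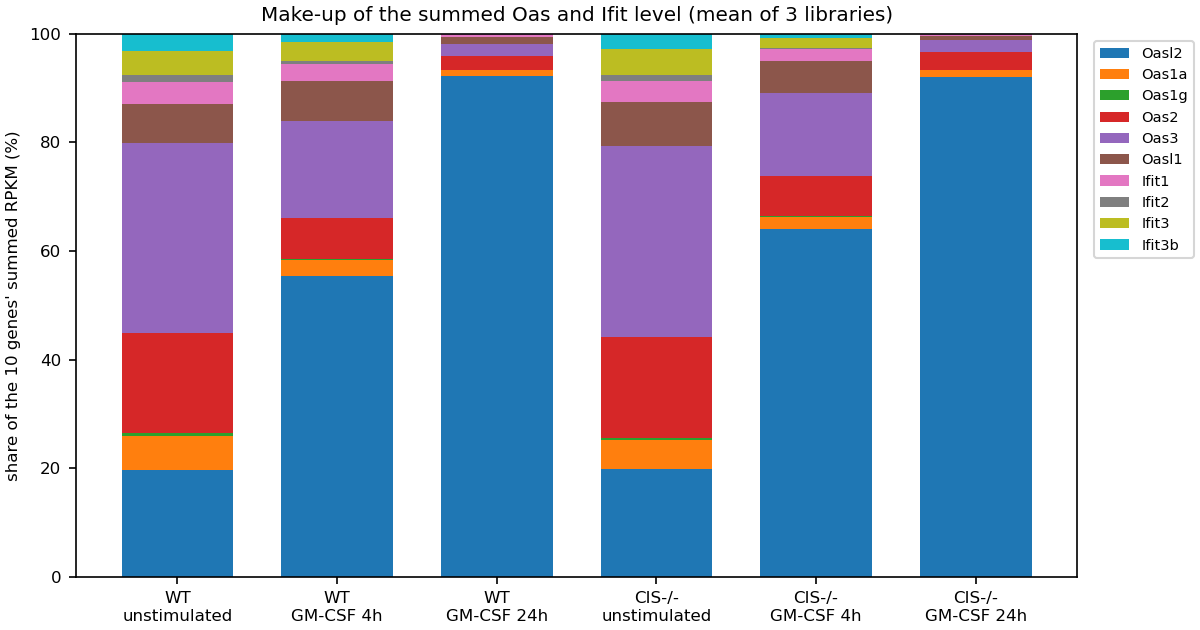
Share of each gene in the summed RPKM of the 10 genes (y axis, percent, mean of 3 libraries) in the 6 groups. The Oasl2 segment at the base grows from 19.7% and 19.9% in unstimulated cells to 92.2% and 92.1% at 24 h.

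At 4 h the libraries labelled CIS-/- had lower levels of 9 of the 10 genes than WT, against 9.3% of all genes called lower, and the 4 Ifit genes had the largest fitted differences, Ifit1 and Oas1g lying within their errors of each other. Ifit2 stood at 41% of the WT mean, Ifit3 at 42.9%, Ifit3b at 45.2% and Ifit1 at 57.8%, with log2 fold changes of -1.30 ± 0.12, -1.21 ± 0.07, -1.14 ± 0.10 and -0.79 ± 0.06 (edgeR, largest adjusted p = 1.29e-13). All 9 genes lay wholly below WT, as 17.5% of all genes did. Among the Oas genes the log2 fold changes were -0.75 ± 0.21 for Oas1g, -0.52 ± 0.06 for Oas1a, -0.51 ± 0.04 for Oasl1, -0.44 ± 0.03 for Oas3 and -0.30 ± 0.04 for Oas2 (edgeR, largest adjusted p = 0.00608). The call for Oas1g was lost without replicate 2 labelled CIS-/- at 4 h (-0.65, adjusted p = 0.0599). Oasl2 was not called, at 99.3% of the WT mean, and the 95% interval of its log2 difference ran from -0.07 to 0.05. The median difference over the 10 genes was -0.63, beside -0.02 for all genes.

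The smaller level at 4 h went with a smaller rise for 7 of the 10 genes, tested as an interaction of genotype and time, against 10.4% of all genes called lower in that interaction and 5.32% higher. On the log2 scale the rise in the libraries labelled CIS-/- minus that in WT was -1.18 ± 0.12 for Ifit3, -1.04 ± 0.19 for Ifit2, -0.91 ± 0.16 for Ifit3b and -0.65 ± 0.11 for Ifit1 (edgeR, largest adjusted p = 1.58e-05). It was -0.57 ± 0.08 for Oasl1, -0.33 ± 0.05 for Oas3 and -0.21 ± 0.06 for Oas2. For Oas2 the edgeR adjusted p of 0.00647 rose to 0.0838 without replicate 3 of the unstimulated cells labelled CIS-/-. With no filter on low counts it was 0.0542, and Oas2 was not called there either. The interaction was not called for Oas1a (interval -0.41 to 0.03), Oas1g (-0.59 to 0.69) or Oasl2 (-0.01 to 0.17). Markers of red cells and megakaryocytes moved with the label as well: their summed level was 78.4 to 110 CPM in the 4 h libraries labelled CIS-/- against 32.8 to 36.7 in WT, and 116 to 120 against 43.2 to 46.3 in unstimulated cells, and their part in the result was not tested. The dendritic cell markers, led at 4 h by Bst2, which interferons also induce, summed to 24 to 28.4 CPM in WT and 20.3 to 21.9 in those labelled CIS-/- at 4 h, and their part was not tested either. The monocyte and macrophage markers, at 155 to 162 CPM in WT and 210 to 216 under the label CIS-/-, and the neutrophil markers, at 75285 to 76505 and 69998 to 75020, also parted by genotype at 4 h, with no test of their part.

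Before stimulation fewer members differed by genotype. Oas1a, Oas1g, Oas3 and Oasl2 were called lower in the libraries labelled CIS-/-, against 9.41% of all genes, by -0.33 ± 0.09, -0.79 ± 0.26, -0.11 ± 0.03 and -0.09 ± 0.03 (log2, edgeR, largest adjusted p = 0.0426). The count of 4 fell to 1 without WT replicate 3, where only Oas1a was left. Without replicate 3 labelled CIS-/- it fell to 2, Oas1a and Oas2. There Oas2 gained a call (-0.14, edgeR adjusted p = 0.038), as it did with library sizes alone (0.03) and the compared groups only (0.0496). Ifit3b gained one without replicate 1 labelled CIS-/- (-0.40, edgeR adjusted p = 0.0342). The call for Oasl2 was lost with RLE factors, DESeq2, limma-voom and no filter on low counts (adjusted p from 0.078 to 0.155), and on leaving out any of the 6 libraries but WT replicate 1 (0.0682 to 0.161). That for Oas3 was lost with no filter (0.0719), without WT replicate 3 (0.126) and without replicate 1 or 3 labelled CIS-/- (0.0748 and 0.0584), and that for Oas1g with DESeq2 (0.0571) and without replicate 3 of WT or of those labelled CIS-/- (0.12 and 0.147). In the main fit no member was called higher (12.9% of all genes were), and none of Oas2, Oasl1 and the 4 Ifit genes passed. The median over the 10 genes was -0.12 beside -0.01 for all genes. With library sizes alone 5 members were lower, and the split of all genes called higher and lower moved from 1489 and 1089 to 1168 and 1660. Red cell and megakaryocyte markers, given above, neutrophil markers (123969 to 125194 CPM in WT and 118830 to 122757 under the label CIS-/-), and monocyte and macrophage markers (321 to 332 and 305 to 319) parted by genotype before stimulation too, as did eosinophil, basophil and mast cell markers (32.8 to 34.4 and 29.6 to 31.8) and B cell markers (1.55 to 2.31 and 2.74 to 2.98), and their part was not tested.

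At 24 h Oas2 was called higher in the libraries labelled CIS-/-, and Oas3, Oasl1, Oasl2 and Ifit3b lower. Of all genes 38.2% were higher and 38.1% lower. The 4 of 10 members lower thus lie near that background, and the 1 of 10 higher lies below it. Of these 5, Oasl1 was at 53.1% of the WT mean (log2 -0.93 ± 0.13, edgeR adjusted p = 2.38e-09), Oas2 at 118% (0.24 ± 0.06, adjusted p = 0.000598), Oas3 at -0.18 ± 0.05 and Oasl2 at -0.10 ± 0.03. Ifit3b, with 0 against 10 counts, was at least 2.07-fold lower (edgeR adjusted p = 0.00551), and Ifit2, with 2 against 9 counts, was 2.79 times as high in WT with a counting interval of 0.577 to 26.5. Ifit3 was not called on its own (-0.72 ± 0.74), but with the counts of Ifit3 and Ifit3b summed the pair was called lower (-1.62, edgeR adjusted p = 0.0235). These values depend on the scaling: with library sizes alone 7 members were lower and 0 higher, Oas2 turned to -0.29, and the split of all genes moved from 4416 and 4411 to 2558 and 6999 with a median of -0.55. The red cell and megakaryocyte markers summed to 30 to 43.4 CPM in these libraries labelled CIS-/- against 11.4 to 12.7 in WT, and their part, like that of the monocyte and macrophage markers given above, was not tested. The same holds for the eosinophil, basophil and mast cell markers, at 56.4 to 64.2 CPM in WT and 38.4 to 42.5 in those labelled CIS-/-, the dendritic cell markers, at 4.75 to 4.95 and 6.67 to 7.73, and the B cell markers, at 0.343 to 0.372 and 0.701 to 1.1. The interval for Ifit1 ran from -0.74 to 0.03 and that for Oas1a from -0.16 to 0.41.

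**Figure D5:**
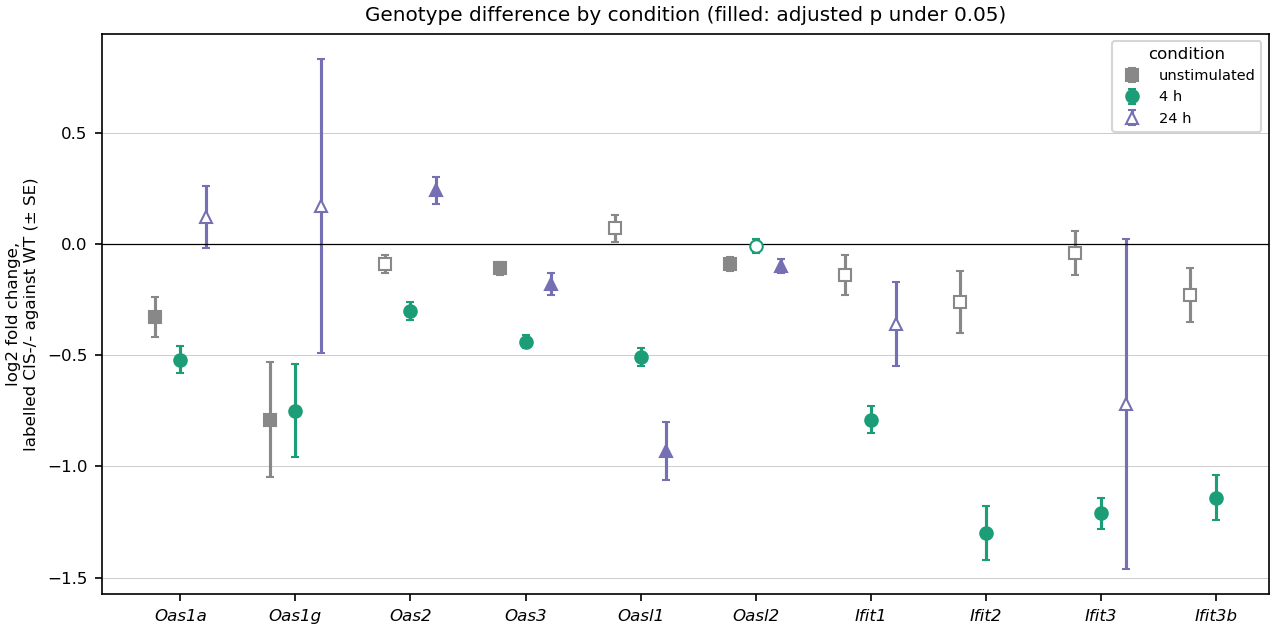
Log2 fold change of libraries labelled CIS-/- against WT (y axis, ± SE from edgeR) for each gene in unstimulated cells (squares), at 4 h (circles) and at 24 h (triangles), filled where the adjusted p is under 0.05; Ifit2 and Ifit3b have no 24 h point because 1 group held 3 or fewer counts. At 4 h the points run from -1.30 for Ifit2 to -0.01 for Oasl2, and only Oasl2 is open.

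In the later part of the time course the interaction was called for some members. The shares of members called did not exceed those of all genes, given beside them. Between 4 h and 24 h the fall was smaller in the libraries labelled CIS-/- for Oas1a by 0.65 ± 0.16, for Oas2 by 0.54 ± 0.08 and for Oas3 by 0.26 ± 0.06 (33.9% of all genes called higher), and larger for Oasl1, with an interaction of -0.42 ± 0.14 (32.1% called lower; edgeR, largest adjusted p = 0.00567). From unstimulated cells to 24 h the interaction was 0.46 ± 0.17 for Oas1a and 0.33 ± 0.08 for Oas2 (31.6% called higher) and -0.99 ± 0.14 for Oasl1, with Ifit3b also called lower (33.1% called lower). The call for Ifit3b rested on 0 counts in those labelled CIS-/- at 24 h. It was lost with limma-voom, without WT replicate 2 at 24 h and without replicate 3 labelled CIS-/- at 24 h. The interval for Oasl2 ran from -0.10 to 0.09, and Ifit2 was not called. With library sizes alone Oasl2 was called lower, at -0.50 from unstimulated cells (edgeR adjusted p = 1.28e-14) and -0.61 from 4 h (adjusted p = 1.93e-19). With the counts of paralogs summed, the Oas1a and Oas1g pair was called in both (0.50 from unstimulated cells and 0.66 from 4 h, edgeR adjusted p = 0.00657 and 0.000181), whereas Oas1g alone was not, and the Ifit3 and Ifit3b pair was called lower from unstimulated cells (-1.50, adjusted p = 0.0445). With library sizes alone the median of all genes moved to -0.53 and -0.51 in these 2 interactions, the splits from 3922 and 3711 to 2247 and 6154 and from 3658 and 3831 to 2028 and 6178, and no member was called higher in either. The interactions of Oas1a, Oas2 and Oas3 lay at 0.12 or below, with Oas3 at -0.26 between 4 h and 24 h and Oas2 at -0.16 from unstimulated cells to 24 h. Without replicate 2 labelled CIS-/- at 24 h the interaction of Oas1a from unstimulated cells was 0.33 and not called (adjusted p = 0.1), and without replicate 3 the one of Oasl1 between 4 h and 24 h was -0.31 and not called (adjusted p = 0.101).

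Across the 6 group means of log2 CPM, the 9 genes other than Oasl2 ran closely together, with Pearson r between 0.931 and 0.999 for each pair, the highest for Ifit2 and Ifit3b. The r of Oasl2 with the other 9 reached at most 0.353, with Oasl1. The 3 genes most like Oasl2 among 6780 compared were Tnfrsf22 (r = 0.9988), Fabp5 (0.9969) and Cox19 (0.9964). Fabp5, which encodes a fatty acid binding protein, had WT means of 18.4, 132 and 68.1 CPM over the 3 times. The 3 most like Ifit3 were H2-T22 (r = 0.9985), Etnk1 (0.9982) and Stk4 (0.9975), of which H2-T22, an MHC class I gene, had WT means of 41.6, 61.4 and 18.8 CPM. These are descriptions over 6 groups that share all 18 libraries.

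Of the 11 listed other genes of the Oas and Ifit families and their pathway, 7 could be tested. At 4 h in WT 4 rose and 1 fell, beside 4404 and 4422 of all 11569 genes tested. At 24 h in WT 2 were higher and 5 lower than unstimulated (40.7% and 37.7% of all genes). Under the label CIS-/- 3 were higher and 3 lower at 24 h (42.1% and 42% of all genes). By genotype at 4 h 1 was higher and 4 were lower, beside 925 and 1076 of all genes. Oas1d, Oas1f and Oas1h had no count in any library, and Oas1e had 6 in all, a set named after its values were seen. Ifit1bl2, which shares stretches with Ifit1, averaged 88, 211 and 47.6 CPM in WT and 79.3, 182 and 123 CPM in those labelled CIS-/-, and under that label it was higher than WT at 24 h (log2 1.37 ± 0.05, edgeR adjusted p = 3.66e-35).

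Upstream of the members, the interferon genes themselves had few or no counts. Of 20 interferon genes listed, 18 had no count in any library, a floor of 3 counts per group being 0.0425 to 0.0745 CPM. Ifnk had 1 count at 4 h in WT and Ifnab 2 counts at 24 h in libraries labelled CIS-/-. Of the 7 genes of the type I receptor and ISGF3, 6 rose at 4 h in WT and 5 in those labelled CIS-/-, beside 38.1% and 37.9% of all genes, shares against which the counts of risen genes in the other lists also stand. By genotype 1 of the 7 was lower at 4 h (9.3% of all genes), with a median difference of -0.02, and at 24 h 6 were higher and 1 lower (38.2% and 38.1% of all genes), with a median of 0.49. Irf9, the DNA-binding part of ISGF3, averaged 114, 262 and 54.7 CPM in WT and 115, 249 and 81.4 CPM under the label CIS-/-, and was not called between genotypes at 4 h (-0.07 ± 0.04, edgeR adjusted p = 0.197). The receptor gene Ifnar1 rose from 143 to 222 CPM by 4 h in WT, and the kinase gene Jak1 from 732 to 794 CPM. Under the label CIS-/- the rise of Jak1 was not called (0.03 ± 0.03, edgeR adjusted p = 0.461). The difference of the 2 rises was not called either (interaction -0.09 ± 0.05, edgeR adjusted p = 0.192).

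Most of the other interferon-stimulated genes rose at 4 h and were below their unstimulated level at 24 h. Of the 16 listed, 13 could be tested, and all 13 rose at 4 h in both genotypes. At 24 h in WT 10 were lower and 3 higher than unstimulated (37.7% and 40.7% of all genes). By genotype 9 were lower at 4 h in the libraries labelled CIS-/- (9.3% of all genes), with a median of -0.18. Gbp2, a guanylate-binding protein gene, went from 31.7 to 1173 and then 4.25 CPM in WT, and Parp14 from 55.1 to 637 and then 102 CPM, the last still 0.89 ± 0.05 (log2) above unstimulated. Of 7 testable RNA sensor genes, 5 rose at 4 h in WT. By genotype 5 were lower at 4 h in the libraries labelled CIS-/- (9.3% of all genes), with Ddx58, which encodes RIG-I, at 411 ± 6.1 CPM in WT against 362 ± 11. Zbp1, a sensor of Z-form nucleic acids, rose from 14.7 to 311 CPM in WT by 4 h.

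Among the 7 feedback regulators of interferon signalling, all 7 rose at 4 h in WT. Under the label CIS-/- 6 rose and 1, Socs3, fell, beside 4381 and 4526 of all 11569 genes tested. Socs1, a suppressor of cytokine signalling like Cish, rose from 12.6 to 245 CPM in WT and from 21.4 to 294 CPM in the libraries labelled CIS-/-, and at 24 h was at 88.6 and 107 CPM. At 4 h it was higher than in WT in the libraries labelled CIS-/- by 0.27 ± 0.04 (log2, edgeR adjusted p = 1.7e-07), as was Socs3 by 0.64 ± 0.03 (adjusted p = 1.98e-26). Socs3 was already higher before stimulation, at 1801 against 678 CPM in WT (1.41 ± 0.03, adjusted p = 5.62e-44). By genotype at 4 h the list had 2 higher and 2 lower, beside 925 and 1076 of all 11569 genes. Of 5 testable interferon regulatory factors, 4 rose and 1 fell at 4 h in both genotypes. Among all genes 4404 rose and 4422 fell at 4 h in WT, and 4381 rose and 4526 fell under the label CIS-/-. Irf5 averaged 40.2, 297 and 198 CPM in WT and 41.4, 300 and 580 CPM under the label CIS-/-, whereas Irf1 fell at 4 h in WT from 236 to 183 CPM.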

How the data were processed

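RNA of 18 libraries (6 groups of 3, from the labels' titles) was analysed. The deposited values are raw read counts for each Ensembl ID; Trimmomatic, STAR and featureCounts were used with mm10, per the submitters' processing notes. No version, strand setting or annotation release was stated in the sources used here. Names for 53274 of 53379 IDs, positions and exon lengths came from GENCODE release M21 (GRCm38); the 105 unnamed IDs held 0.0238% of the counts. In R 4.3.3, edgeR 4.0.16 (filterByExpr by group, TMM factors, 1 robust quasi-likelihood model of all 6 groups) tested 11569 genes holding 99.928% of the counts, with a common biological coefficient of variation of 3.3% and 12 residual degrees of freedom. The 12 comparisons (9 pairs of groups, 3 interactions) were two-sided, with Benjamini-Hochberg adjustment over all tested genes; adjusted p under 0.05 counted as called. Intervals are 95%, and SE is the log2 fold change over the root of F. Where a group held 0 counts, the text gives a bound from a floor of 3 counts for that group; where it held 1 to 3, it gives a ratio and its exact counting interval. Both cover counting error only. Promoters are from RefSeq, GRCm38.p6.

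Alternatives were RLE factors, library sizes alone, DESeq2 1.42.0, limma-voom (limma 3.58.1), no filter on low counts, a filter of 50 counts in 3 libraries, the compared groups only, a replicate block, leaving out each library and summing paralog pairs. The edgeR fit was tested on simulated counts for the genotype comparison at 4 h only. The text names all members, Cish, up to 3 genes of each pathway list by mean CPM (1 of these is not reported here), and the 3 genes most like the members with the largest and smallest WT change at 24 h among named genes with at least 10 CPM in 1 group. The members and lists were chosen with earlier results of these data known. No replicate pair was a duplicate (chi-square per degree of freedom 1.285 to 8.461 over 18 pairs). The highest values, 6.82 and 8.461, were those of replicate 1 labelled CIS-/- at 24 h against replicates 2 and 3. Replicates 2 and 3 of that group were at 2.403 against each other.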

Additional observations from a re-analysis of the deposited data

Results flagged for a closer look

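The change over time differed between the genotypes, by a test of the difference itself, for the genes below. Among all genes 10.4% were called lower and 5.32% higher in the first stretch, 33.1% and 31.6% in the second and 32.1% and 33.9% in the third, so in the last 2 the shares of members called do not exceed that background. All values are log2 changes in the libraries labelled CIS-/- minus those in WT, from the edgeR interaction term, and no cause was tested. From unstimulated cells to 4 h the difference was -0.21 for Oas2, -0.33 for Oas3, -0.57 for Oasl1, -0.65 for Ifit1, -1.04 for Ifit2, -1.18 for Ifit3 and -0.91 for Ifit3b. From unstimulated cells to 24 h it was 0.46 for Oas1a, 0.33 for Oas2 and -0.99 for Oasl1. Between 4 h and 24 h it was 0.65 for Oas1a, 0.54 for Oas2, 0.26 for Oas3 and -0.42 for Oasl1. For Oas2 and Oas3 the sign changed between the early and the late stretch. Both stretches use the 4 h libraries, with opposite signs, so a difference at 4 h alone gives such a change. From unstimulated cells to 24 h, a stretch without the 4 h libraries, Oas3 was not called (-0.07, edgeR adjusted p = 0.334). Oas2 was called there (0.33, edgeR adjusted p = 0.00018), but not with library sizes alone (-0.16, adjusted p = 0.0619). For Oasl1 the sign was negative in all 3 stretches. The positive values listed here were not called as positive with library sizes alone. Groups of 3 libraries were not searched for outlying samples.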

How the results depend on the processing

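Counts of members called at 4 h and at 24 h within each genotype, and the 9 lower by genotype at 4 h, stayed within 1.5 times of the values given under every alternative run. Among the values for single genes, 1649 kept direction and call, 24 lost a call, 22 gained one and 30 changed sign. With paralogs summed, the value of the pair stands for the single gene in these counts. In unstimulated cells the 4 members lower by genotype became 2 with DESeq2 and 2 with no filter, and 1 to 4 with a library left out; Ifit3 ran from -0.12 to 0.08 with a library left out. At 4 h the genotype difference of Oasl2, which was never called, turned to 0.01 with RLE factors, DESeq2 and the compared groups only, 0.0015 with no filter, and ranged from -0.03 to 0.003 with a library left out. With library sizes alone at 24 h, 0 members were higher and 7 lower by genotype, with Oas1a at -0.41, Oas1g at -0.34 and Oas2 at -0.29; Oas1a ran from -9.6e-05 to 0.26 with a library left out.

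In the interaction to 4 h, 1 member (Oasl2) was higher with the compared groups only. Oas1g, never called, ranged from -0.15 to 0.25 with a library left out, and its summed pair with Oas1a was at -0.16. From unstimulated cells to 24 h, library sizes alone gave 0 higher and 5 lower (Oas1a -0.03, Oas2 -0.16). With limma-voom 1 was lower, and with a library left out 1 to 2 of each were called. Oasl2, not called in the main fit, was called at -0.50 with library sizes alone (edgeR adjusted p = 1.28e-14). It turned to 0.01 with RLE factors and DESeq2, 0.02 with the filter of 50 counts and 0.0045 with the compared groups only. With a library left out it ran from -0.02 to 0.02. Between 4 h and 24 h, library sizes alone gave 0 higher and 4 lower, with Oas3 at -0.26, Ifit1 at -0.09 and Ifit3 at -0.00029. Oasl2 was called lower there, at -0.61 (edgeR adjusted p = 1.93e-19). It was also called with limma-voom (-0.09, adjusted p = 0.0157) and the compared groups only (-0.12, edgeR adjusted p = 0.0285). The 1 member lower became 2 with limma-voom and the filter of 50 counts, 3 with the compared groups only, and 0 to 2 with a library left out. Ifit3 ranged from -0.50 to 0.88 with a library left out, and its summed pair with Ifit3b was at -0.43. The cause was not tested.

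With the replicate number as a block, that same count was 2, and no other count of members moved by over 1.5 times. Same-numbered libraries correlated between -0.302 and 0.289 over 27 pairs, and 10 of 27 correlated best with their own number. The 27 pairs include those between genotypes, and such weak correlations cannot settle whether the numbers pair the libraries. Depth limits Ifit2, Ifit3, Ifit3b and Oas1g at 24 h, each with 11 counts or fewer in a group.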
